A study of Mus musculus with 9 samples.

Results

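Voltage-gated sodium channels open when a neuron is depolarised and carry the inward current of the action potential. Their large alpha subunits (Scn1a, Scn2a, Scn3a and Scn8a in the brain) form the pore, and small beta subunits (here Scn2b, Scn3b and Scn4b) modify gating and anchor the channel at the membrane. NALCN, encoded by Nalcn, is a related channel without a fast inactivation gate that carries a steady sodium leak and helps set the resting potential. The transcripts of these 8 genes, taken by name from the 31052 gene symbols of a deposited expression table, were described in nuclei of mouse hippocampal pyramidal cells.

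Nuclear RNA had been sequenced from cells whose behaviour during navigation made them place cells, active at certain locations of the environment (5 libraries), or silent cells (4 libraries). The cells had been imaged in vivo with a 2-photon microscope while the mice navigated, and their nuclei were then marked with light and collected. Every library carried the genotype label WT, and the SMART-Seq mRNA LP kit, a whole-transcript method for small inputs of polyadenylated RNA, was used throughout. The labels do not say how many nuclei a library pooled and give no age, sex or strain. Each title names a mouse by a number that differs between libraries. Whether these numbers stand for separate animals is not explained, so the p-values measure only the spread between these libraries.

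The alpha subunit genes are close relatives, and reads from sequences so similar can be hard to assign to a single gene. Scn1a, Scn2a and Scn3a lie on mouse chromosome 2 and Scn8a on chromosome 15. Coding sequences were compared in GENCODE M21 transcripts (GRCm38). Along the aligned coding sequence, Scn2a and Scn3a were 84.8% identical and Scn1a and Scn2a 84.1%. Scn8a was 77.0% to 77.9% identical to the 3 genes of chromosome 2. The longest identical run was 188 bases between Scn1a and Scn2a, and 55 bases between Scn8a and Scn3a.

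Of all stretches of 50 bases in the transcript, 8.25% in Scn3a, 8.01% in Scn2a and 5.30% in Scn1a also occurred in another gene of the family. In Scn8a the share was 0.0393%, and in Nalcn, Scn2b, Scn3b and Scn4b it was 0. For read length, and for the treatment of reads that match several genes, the labels have no entry. The values of Scn1a, Scn2a and Scn3a are therefore the less certain ones. The annotation places a transcript, Gm13630, over exons of Scn1a on the opposite strand, at no more than 20.0 RPM in any library, and a lincRNA, Gm10684, over Scn2b exons, with no value here. Whether the counting used strand is not stated.

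Depth was 15315410 to 21983357 recovered reads in place libraries and 15018312 to 22358237 in silent libraries. Levels are in RPM, reads per 1000000 of each library's depth after scaling by the trimmed mean of M-values (TMM). Markers of pyramidal neurons summed to 3707 ± 485 RPM in the 5 place libraries and 3702 ± 475 RPM in the 4 silent libraries (SD). Gria1 and Camk2a were the highest of these 8 markers and weigh most in the sum. Of the 8, 2 had log2 folds (place minus silent) above 0 and 6 below, against 58.7% and 41.3% of all genes, and none was called. Libraries did stand apart. Oligodendrocyte markers summed to 1504, 1976 and 3422 RPM in place replicates 1, 2 and 3, to 310 and 195 RPM in place replicates 4 and 5, and to 116 to 581 RPM in silent libraries. Of the 11 oligodendrocyte markers 10 were tested, all 10 with log2 folds above 0 and none called, and 8 had no reads in some library. Astrocyte markers reached 2429 RPM in place replicate 3, against 165 to 495 RPM in the other 8 libraries, and 5 of the 7 markers had no reads in some library. Interneuron markers reached 1229 RPM in silent replicate 3, against 197 to 521 RPM elsewhere. Transcripts of 4 Y-linked genes summed to 1011 RPM in place replicate 1, to at most 0.256 RPM in the other place libraries, and to 722 to 1305 RPM in the silent libraries.

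None of the 8 genes passed the test between place and silent libraries (limma, Benjamini-Hochberg adjusted p under 0.05 over 15228 genes), where 0% of all genes tested passed. At an unadjusted p under 0.05 the count of the 8 genes was 0, against 3.75% of all genes higher and 1.33% lower in place libraries, while voom, another limma fit, called 4 genes (0.0263%), none of these 8. In all 8 genes the values of place and silent libraries overlapped. Among all genes, 1.29% had every place library above every silent library and 0.598% every place library below. Log2 folds, place minus silent, were above 0 in 3 of the 8 genes and below 0 in 5, against 58.7% and 41.3% of all genes, and their median was −0.14 against 0.19 over all genes.

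**Figure D1:**
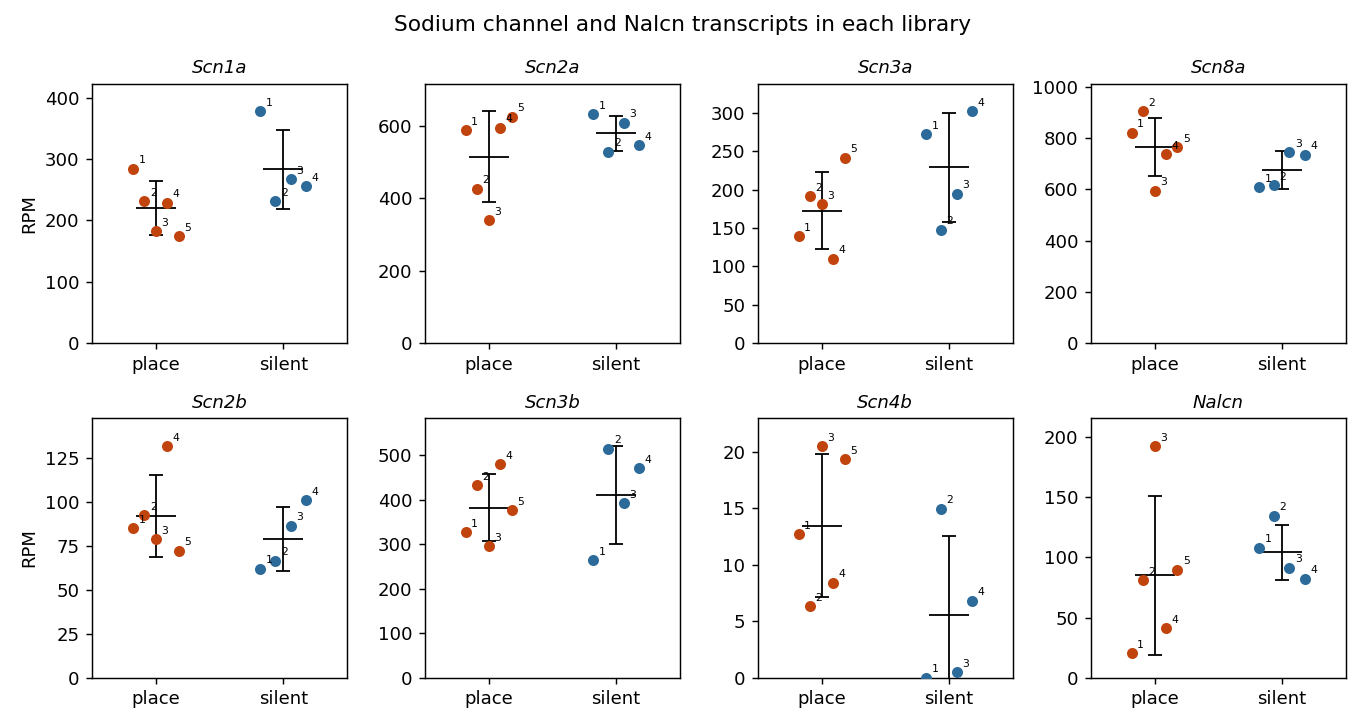
Level in RPM (y axes from 0, a separate scale in each panel) of the 8 genes in place libraries, left, and silent libraries, right. Points are libraries with their replicate number, and bars are the mean and SD (n = 5 place, n = 4 silent), cut off at 0 for Scn4b in silent libraries. The 2 groups overlap in all 8 panels, and the spread is widest in Scn4b and in the place libraries of Nalcn, between 20.6 and 192 RPM.

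Scn8a encodes Nav1.6, the alpha subunit that dominates the distal axon initial segment and the nodes of Ranvier in adult neurons. It stood at 821, 905, 596, 738 and 765 RPM in place replicates 1 to 5 and at 608, 617, 745 and 736 RPM in silent replicates 1 to 4. Place replicates 1, 2 and 5 were above all silent libraries, place replicate 4 lay within the silent range, and place replicate 3 was below it. The group means were 765 ± 114 RPM in the 5 place libraries and 677 ± 74.2 RPM in the 4 silent libraries (SD). The log2 fold was 0.17 ± 0.16 (SE, limma adjusted p = 0.864, 95% interval −0.18 to 0.52). For this and every other gene, fewer cells of a type and less RNA per cell cannot be told apart in libraries of bulk RNA.

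Scn2a encodes Nav1.2, found along immature and unmyelinated axons and in the proximal initial segment of excitatory neurons. Its levels were 589, 427, 340, 596 and 627 RPM in place libraries and 632, 529, 609 and 548 RPM in silent libraries. Place replicates 2 and 3 were below every silent library, and the other 3 lay within the silent range. These 2 libraries were also the highest of the 9 in summed oligodendrocyte markers, and the part of those markers in the low values was not tested. The log2 fold was −0.20 ± 0.21 (SE, limma adjusted p = 0.866, interval −0.65 to 0.24). With the oligodendrocyte level as a term in the fit it was 0.20, and with that of the Y-linked genes 0.0071.

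Scn1a encodes Nav1.1, which is prominent in inhibitory interneurons and in the cell body of many other neurons. It stood at 285, 231, 182, 229 and 174 RPM in place libraries and at 378, 231, 267 and 256 RPM in silent libraries. Silent replicate 1 was the highest of the 9 libraries, place replicates 3, 4 and 5 were below every silent library, and place replicates 1 and 2 lay within the silent range. The log2 fold was −0.36 ± 0.23 (SE, limma adjusted p = 0.864, interval −0.86 to 0.14), and the fit that includes the Y-linked level gave 0.0023.

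Scn3a encodes Nav1.3, an alpha subunit most abundant in the embryonic brain that declines after birth in rodents. It was nonetheless read in every library, at 139, 191, 181, 110 and 241 RPM in place libraries and 272, 147, 195 and 302 RPM in silent libraries. Place replicates 1 and 4 were the lowest of all and silent replicates 1 and 4 the highest, with the others intermixed. The log2 fold was −0.41 ± 0.30 (SE, limma adjusted p = 0.864, interval −1.05 to 0.24).

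The 4 alpha genes together came to 1673 ± 218 RPM in the 5 place libraries and 1769 ± 165 RPM in the 4 silent libraries (SD), a difference within 1 SD of either group. Their make-up can be compared only per length. As a share of the 4 genes' summed RPM per kb of exon, Scn8a made up 38.6%, 45.2%, 39.6%, 38.1% and 36.6% in place libraries and 26.8%, 34.5%, 35.1% and 34.1% in silent libraries. All 5 place libraries were above all 4 silent libraries, by 1.49 percentage points at the nearest pair. The shares averaged 39.6% ± 3.31 in the 5 place libraries and 32.6% ± 3.91 in the 4 silent libraries (SD).

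The other 3 alpha genes made up correspondingly less of the total, and the shares of each overlapped between groups. Scn2a took 32.8% ± 5.28 in the 5 place libraries and 34.5% ± 2.26 in the 4 silent libraries (SD). Scn1a took 16.2% ± 2.65 and Scn3a 11.5% ± 3.64 in place libraries, against 19.1% ± 3.02 and 13.7% ± 3.32 in silent libraries. The ratio of Scn8a to Scn1a, per kb of exon, was 2.04, 2.76, 2.31, 2.28 and 3.11 in place libraries and 1.14, 1.88, 1.97 and 2.03 in silent libraries, so these ratios did not overlap, although place replicate 1 and silent replicate 4 nearly met. The ratio of Scn8a to Scn2a averaged 1.25 ± 0.31 in the 5 place libraries and 0.948 ± 0.129 in the 4 silent libraries (SD) and did overlap.

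The Scn8a share is a description of 1 of 4 shares and 3 ratios, with no test. How often shares or ratios of other genes keep the 2 groups apart was not computed, and Scn8a itself overlapped in RPM. The share does not depend on how libraries are scaled to each other. The groups were also apart when the length of the longest coding transcript or plain reads took the place of exon length. The nearest pair was then 1.45 and 1.33 percentage points apart. All versions use the same reads, so they are not separate evidence. In place replicates 1, 2 and 3, which were high in oligodendrocyte markers, the share was 38.6%, 45.2% and 39.6%. In place replicates 4 and 5, whose oligodendrocyte markers lay within the silent range, it was 38.1% and 36.6%. The part of oligodendrocyte RNA or of the Y-linked difference in the share was not tested.

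**Figure D2:**
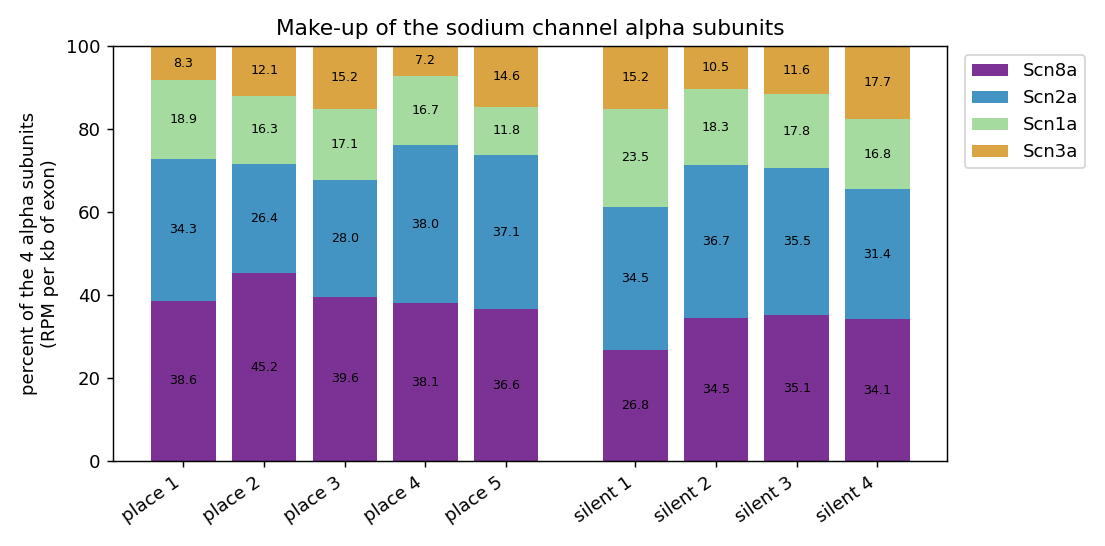
Share of the 4 alpha subunit genes in their summed RPM per kb of exon (y axis, percent from 0 to 100), 1 bar a library, 5 place libraries left and 4 silent libraries right. The lowest segment, Scn8a, runs from 36.6% to 45.2% in place libraries and from 26.8% to 35.1% in silent libraries.

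Beta subunits beta 2 and beta 4 bind the alpha subunit by a disulfide bond, while beta 3 binds without one. Scn3b, encoding beta 3, had 327, 432, 295, 480 and 376 RPM in place libraries and 264, 514, 392 and 471 RPM in silent libraries. Silent libraries held both the lowest and the highest value, so the place range lay inside the silent range. The log2 fold was −0.08 ± 0.24 (SE, limma adjusted p = 0.965, interval −0.60 to 0.44), and it lay at 0.0050 without place replicate 3, at 0.04 without silent replicate 2, at 0.21 with the oligodendrocyte level in the fit, and at −0.49 when the count of detected genes was a term.

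Scn2b, encoding beta 2, had 85.2, 92.6, 79.0, 132 and 72.4 RPM in place libraries and 62.1, 66.7, 86.7 and 101 RPM in silent libraries. Place replicate 4 was the highest and silent replicates 1 and 2 the lowest, with the rest intermixed. The log2 fold was 0.22 ± 0.32 (SE, limma adjusted p = 0.916, interval −0.49 to 0.92).

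Scn4b encodes beta 4, whose intracellular tail can block the open pore and give rise to resurgent sodium current, as described in cerebellar Purkinje cells. It was the rarest of the 8 transcripts, at 12.7, 6.32, 20.5, 8.40 and 19.3 RPM in place libraries and 0, 14.97, 0.480 and 6.82 RPM in silent libraries. Silent replicate 1 had 0 reads, which allows up to 3 reads or 0.212 RPM, for counting error only, and silent replicate 3 was near 0 as well. Silent replicate 2 lay among the place libraries, and silent replicate 4 exceeded place replicate 2. Means were 13.4 ± 6.35 RPM in the 5 place libraries and 5.57 ± 6.995 RPM in the 4 silent libraries (SD), a ratio of 2.41. Without silent replicate 2 the silent mean was 2.43 RPM, and without silent replicate 1 it was 7.42 RPM.

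The fitted log2 fold of Scn4b was 3.63 ± 1.98 (SE, limma adjusted p = 0.864, interval −0.68 to 7.94). On this scale silent replicates 1 and 3, at and near 0, weigh more than in the ratio of means: the fold was 2.71 with a pseudocount of 10 and 1.72 without silent replicate 1. Without silent replicate 2 it was 4.94, with an adjusted p of 0.651, the smallest of its alternatives, which reached up to 0.9998. Dentate granule markers, another possible source of RNA in the hippocampus, summed to 27.6, 66.9, 281, 16.6 and 57.9 RPM in place libraries. In silent libraries they summed to 105, 112, 91.6 and 29.1 RPM, and 4 of the 5 markers had no reads in some library. Place replicate 3 was highest in these markers and in Scn4b. The next highest in the markers, silent replicates 2 and 1, had 14.97 and 0 RPM of Scn4b. Whether these markers and Scn4b are connected was not tested.

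Set per length over all 9 libraries, Scn3b was the most abundant of the 8 transcripts at 72.3 ± 15.9 RPM per kb of exon (SD, n = 9), above Scn8a in 9 of 9 libraries. Scn8a at 46.0 ± 6.58 and Scn2a at 42.7 ± 7.81 RPM per kb could not be ordered, since Scn8a was above Scn2a in 5 of 9 libraries. Scn1a followed at 22.3 ± 5.44, Scn2b at 18.6 ± 4.53 and Scn3a at 15.9 ± 5.10 RPM per kb, and these neighbours also changed places between libraries.

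Scn1a was above Scn2b in 7 of 9 libraries and Scn2b above Scn3a in 6. Scn3a was above Nalcn in 9 of 9 by exon length. Nalcn at 6.35 ± 3.402 RPM per kb exceeded Scn4b at 2.00 ± 1.499 RPM per kb in 8 of 9. By the length of the longest coding transcript the order of the means was the same except that Scn3a came before Scn2b. The counts of libraries did change with that length. Nalcn was then above Scn3a in place replicate 3 (27.0 against 18.9 RPM per kb) and in silent replicate 2 (18.9 against 15.4 RPM per kb). Exon lengths are those of GENCODE M21, and nuclear RNA also holds unspliced transcripts, so a level per kb of exon is a relative measure.

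**Figure D3:**
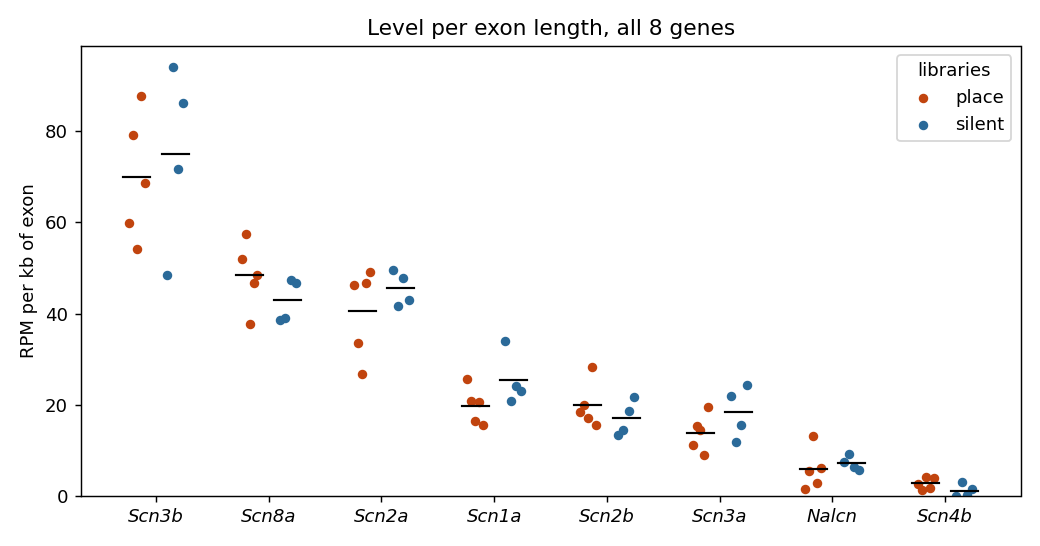
Level per length of the 8 genes (y axis, RPM per kb of exon, from 0), ordered by the mean of all 9 libraries, with place libraries left and silent libraries right of each name. Points are libraries and lines are group means. Scn3b leads at 72.3 RPM per kb, Scn8a and Scn2a lie together at 46.0 and 42.7, and Nalcn and Scn4b are lowest.

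Nalcn had 20.6, 80.8, 192, 41.3 and 89.9 RPM in place libraries and 108, 135, 91.4 and 82.4 RPM in silent libraries. Place replicates 1, 2 and 4 were below every silent library, though replicate 2 only just, place replicate 3 was above them all, and place replicate 5 lay within their range. The highest place value was 9.36 times the lowest, and the highest silent value 1.64 times the lowest. Means were 85.0 ± 66.4 RPM in the 5 place libraries and 104 ± 23.0 RPM in the 4 silent libraries (SD), and the log2 fold was −0.65 ± 0.54 (SE, limma adjusted p = 0.864, interval −1.83 to 0.53).

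Apart from Scn4b, no other fold of the 8 genes moved as far as that of Nalcn when a library was left out or a term added. It was −0.23 without place replicate 1 and −1.04 without place replicate 3. Adding the level of Y-linked genes as a term gave −2.29, at an unadjusted limma p of 0.0096 and an adjusted p of 0.285, the smallest of its alternatives, which reached up to 0.9998. In that fit 221 genes, 1.45% of those tested, were called lower in place libraries. Since Y-linked reads were near 0 in 4 of 5 place libraries and high in all silent libraries, group and Y-linked level can hardly be told apart, and the contrast of that fit rests on place replicate 1 against the silent libraries. Place replicate 1 was the lowest library in Nalcn. Place replicate 3, the highest in Nalcn, was also the highest in astrocyte markers (2429 RPM, led by Slc1a2 at 1086 RPM) and in oligodendrocyte markers. The part of these cells' RNA in its Nalcn level was not tested.

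NALCN works in a complex with the large auxiliary proteins UNC79 and UNC80 and with NALF1 or its relative NALF2, which bring the channel to the membrane. Unc80 was abundant and even, at 970, 763, 868, 737 and 932 RPM in place libraries and 1004, 845, 900 and 1017 RPM in silent libraries. Silent replicates 1 and 4 were above all place libraries, and the rest overlapped. Its log2 fold was −0.14 ± 0.14 (SE, limma adjusted p = 0.865). Per kb of exon, Unc80 averaged 61.9 ± 6.89 RPM over the 9 libraries (SD), against 6.35 for Nalcn, 14.1 for Unc79 and 18.7 for Nalf1. The gap depends on the length used. Per kb of the longest coding transcript the means were 65.6 for Unc80, 13.1 for Nalcn, 22.7 for Unc79 and 36.1 for Nalf1.

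Unc79 averaged 181 ± 59.6 RPM in the 5 place libraries and 227 ± 92.4 RPM in the 4 silent libraries (SD), with a log2 fold of −0.31 ± 0.34. Nalf1 averaged 108 ± 42.3 RPM in the 5 place libraries and 141 ± 73.7 RPM in the 4 silent libraries (SD), with a log2 fold of −0.30 ± 0.43. Nalf2 was listed at 0 in place replicates 1, 3 and 5, at 28.2 and 120 in place replicates 2 and 4, and at 22.5, 186, 22.5 and 233 in silent replicates 1 to 4, in deposited values whose reads could not be recovered. All 4 partner genes had folds below 0, as 41.3% of all genes did, none passed the test, and each overlapped between groups.

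**Figure D4:**
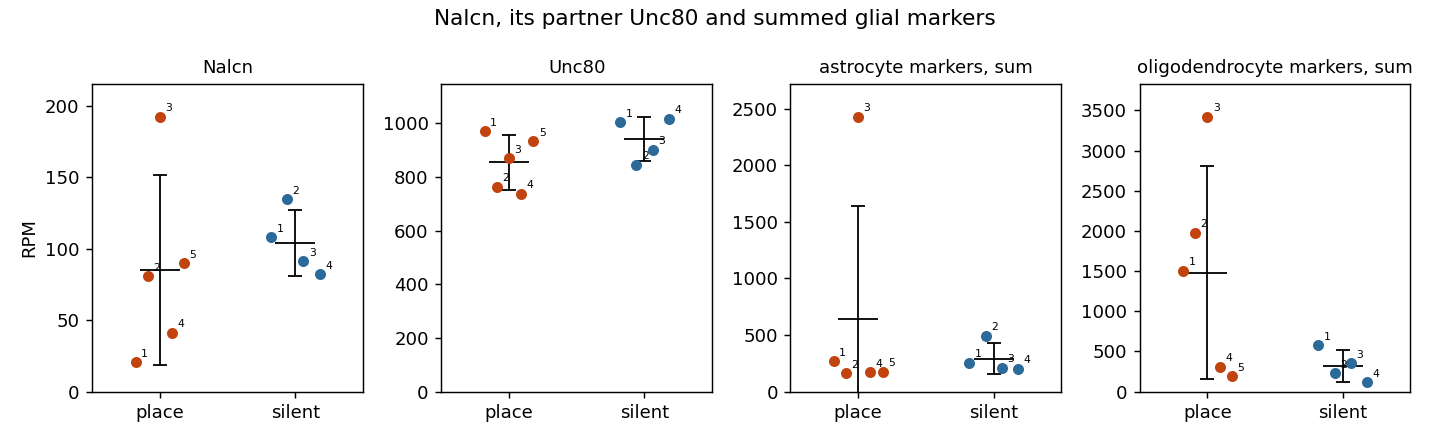
Level in RPM (y axes from 0, a separate scale in each panel) of Nalcn, of Unc80 and of the summed astrocyte and oligodendrocyte markers, place libraries left and silent libraries right. Points are libraries with their replicate number, and bars are the mean and SD (n = 5 place, n = 4 silent), cut off at 0 for the astrocyte markers in place libraries. Place replicate 3 is the highest library for Nalcn (192 RPM) and for both marker sums, but not for Unc80.

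**Figure D5:**
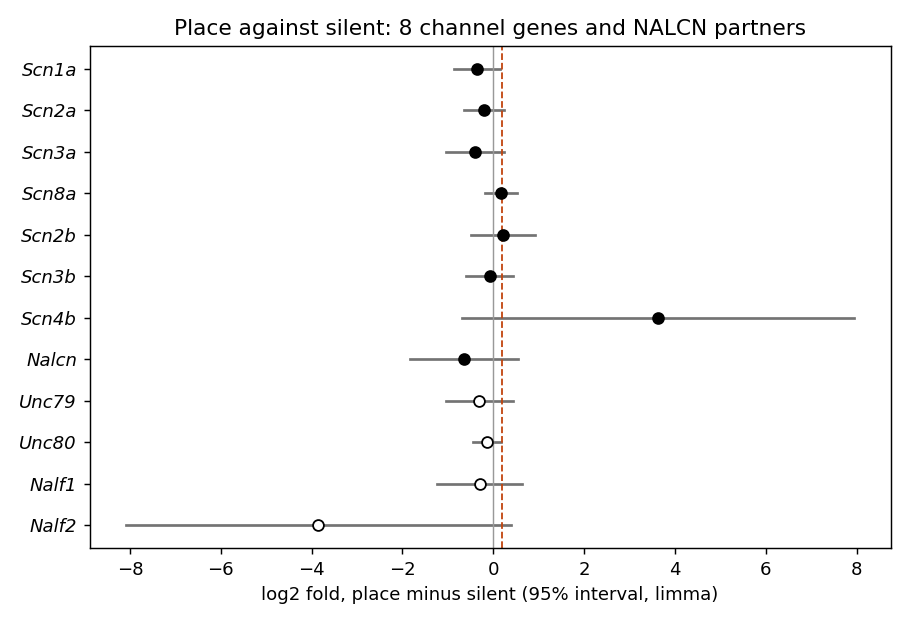
Log2 fold, place minus silent (x axis), with its 95% interval from limma, for the 8 channel genes (filled points) and the NALCN partner genes (open points). The dashed line is the median of all genes tested, 0.19. All 12 intervals include 0, and those of Scn4b and Nalf2 are the widest.

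Alpha subunits known mainly from other tissues were rare: Scn9a, of sensory neurons, reached at most 4.36 RPM, and Scn4a, of skeletal muscle, at most 0.0512 RPM.

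Sodium channels are held at the axon initial segment and nodes by ankyrin G, spectrin and adhesion proteins, and are modulated by intracellular fibroblast growth factors. All 16 genes of this group were tested. Their folds were above 0 in 14 and below 0 in 2, against 58.7% and 41.3% of all genes, with a median of 0.22 against 0.19 over all genes, and none passed the test. At an unadjusted p under 0.05, 1 of the 16 was higher in place libraries, where 3.75% of all genes were: Cntn2, an adhesion protein of the zone beside the node. Cntn2 had 119, 143, 125, 43.5 and 41.0 RPM in place libraries and 33.5, 41.4, 51.0 and 17.9 RPM in silent libraries, with a log2 fold of 1.29 ± 0.52 (SE, limma adjusted p = 0.864). The 3 place libraries above the silent range were replicates 1, 2 and 3, the same 3 that were high in oligodendrocyte markers, and their part in it was not tested.

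Of the other genes of that group with the smallest p, Map1b, a microtubule protein that binds Nav1.6, averaged 500.5 ± 119 RPM in place (SD, n = 5) and 341 ± 248 RPM in silent libraries (SD, n = 4). Nfasc, the adhesion protein neurofascin of nodes and initial segments, averaged 601 ± 225 RPM in place and 477 ± 104 RPM in silent libraries. Sptbn4, the beta IV spectrin under the initial segment membrane, averaged 209 ± 37.6 RPM in place and 179 ± 79.7 RPM in silent libraries. Values of each overlapped between the groups.

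Of 16 genes that move sodium back out of the cell or exchange it for calcium or protons, 15 were tested. Folds were above 0 in 6 and below 0 in 9, with a median of −0.12, and none passed the test or reached an unadjusted p under 0.05. Among the smallest p values were those of Slc24a3, a potassium-dependent sodium-calcium exchanger (log2 fold −0.35 ± 0.26), and the sodium-calcium exchangers Slc8a1 (−0.39 ± 0.29) and Slc8a2 (0.42 ± 0.40), with limma adjusted p values of 0.864.

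The genes whose levels over the 9 libraries were most like those of the 4 channel genes highest in RPM were found among 12012 candidates by Pearson's r of log2 levels, with no p. They share libraries and depth with the channel genes and were the highest of very many. Cacnb3, a beta subunit of voltage-gated calcium channels, was most like Scn3b, with r = 0.98 and Spearman's rho = 1.0, so that both genes ordered the 9 libraries alike. Lurap1l was most like Scn2a (r = 0.98, rho = 0.87), and Midn, a nuclear protein, most like Scn1a (r = 0.94, rho = 0.90). Gpr21 was most like Scn8a (r = 0.93, rho = 0.93), but at no more than 7.65 RPM and with no reads in some libraries. The next in order were Ankrd63 and Zfp438 for Scn3b, Pop1 and Ap3m1 for Scn2a, Adissp and Cox14 for Scn1a, and Eaf2 and Itga11 for Scn8a, with r between 0.91 and 0.95. For Pop1 and Ap3m1 rho was 0.63 and 0.60, well below r.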

How the data were processed

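The authors deposited 1 table of normalized read signal, 9 libraries by 31052 gene symbols. STAR, HTSeq and GRCm39 appear in the submitters' processing notes, and no source used here gives versions, strand setting or normalization. The values show how they were scaled. For each of the 8894 genes read in every library, 1 step divided all deposited values into whole numbers (tolerance 0.05 of a read), and no factor per library was seen. In all 8894 the step lay within 0.01 log2 of a TMM-type factor predicted for the gene against a single reference gene, Ezh2. For genes without a value in some library, such as Scn4b, the step was taken from or near that predicted factor. Their reads therefore rest on this prediction. Division by the step gave reads for 30216 genes (97.3%) and for all 8 channel genes.

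Libraries were scaled by TMM (30% trim of M-values, 5% of A-values). Genes reaching a value of 10 in 4 or more libraries (15228) were tested with limma 3.58.1 in R 4.3.3, with intensity trend, on log2(scaled value + 1), place minus silent, no covariate, Benjamini-Hochberg adjustment, threshold 0.05. Folds are on this log2 scale, where the pseudocount understates changes of low genes and a library at 0 can enlarge them. RPM is recovered reads per 1000000 of TMM-scaled depth, available for 15200 of the tested genes.

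The test and the recovery were tested on simulated data. The 8 genes, the lists and the tests were chosen with earlier results of these data known. Genes of other lists are named by smallest p, at most 4 a list, and marker genes by level, at most 2 a list. Sequence comparisons and exon lengths use GENCODE M21 (GRCm38). A few items of the lists are not reported here. No coordinates are given, since the builds differ. Alternatives changed the scaling, pseudocount, filter, test and covariates, or left libraries out.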

Additional observations from a re-analysis of the deposited data

How the results depend on the processing

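None of the 8 channel genes was called under any alternative that was run, and adjusted p values lay between 0.285 and 0.9998 over 175 refits of single genes, of which 169 kept the direction of the fold. The 6 others were Scn1a at 0.0023 and Scn2a at 0.0071 when the level of Y-linked genes was a term, Scn2a at 0.20 and Scn3b at 0.21 with the oligodendrocyte marker level in the fit, and Scn3b in 2 of the fits without a replicate, where its log2 fold ran from −0.28 to 0.04 over all such fits (0.0050 without place replicate 3 and 0.041 without silent replicate 2). The count of all genes called was 4 with limma-voom on recovered reads, 221 when the level of Y-linked genes was a term, and 0 to 1 when each replicate was left out in turn. The 1 gene, called without place replicate 1, was the Y-linked gene Eif2s3y. It had 696 RPM in place replicate 1, 0 RPM in the other place libraries and 345 to 791 RPM in silent libraries. The causes were not tested. Quantile normalization moved the median log2 fold of all genes to 0.01, against 0.19. Scn4b gave no value among genes above 0 in all 9 libraries. The 88 recomputed group means moved by less than 1 SD, which for Scn4b in silent libraries (6.995 RPM) is more than its mean. Most of these means left out 1 library, which cannot move a mean of 4 or 5 libraries by 1 SD. These shifts therefore do not show that the levels were stable. The planned edgeR fit was meant for values accepted as counts and was not run, since the deposited values carry a factor per gene, while limma-voom was run on the recovered reads. No paired analysis was possible because the labels give no replicate numbers shared between the groups. With 5 and 4 libraries the 95% intervals are wide, and folds anywhere within them are compatible with these values. A gene that did not pass is therefore not shown to be unchanged. Scn4b had 0 to 400 reads a library, the fewest of the 8 genes.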

Other observations

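In no group of libraries did a single library lie past the 95% limit of Dixon's test for any of the 8 channel genes (16 groups tested, place and silent for each gene). The library farthest out was silent replicate 1 on the first principal component of all genes (22.8% of the variance), silent replicate 4 on the second (16.6%) and place replicate 3 on the third (15.7%). Silent replicate 1 held the highest Scn1a and Scn2a of the 9 libraries and the lowest Scn2b, Scn3b and Scn4b. Place replicate 3 held the lowest Scn2a and Scn8a and the highest Scn4b and Nalcn. Silent replicate 4 held the highest Scn3a.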
